A study of Mus musculus with 14 samples.

Results

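The genes described are the integrin chains, the intercellular adhesion molecules (ICAMs) and the cadherins of mouse mast cells before and after coculture with fibroblasts. They were chosen by name: every non-control probe of the array whose gene name was Itga, Itgb, Icam or Cdh followed by the number or letter of a chain, with the probe of highest mean level standing for each gene. This gave 53 genes on 108 probes, of 27975 gene names on 41174 probes in all: 17 integrin alpha chains, 9 integrin beta chains, 4 ICAMs and 23 cadherins. A further 4 names that begin in the same way belong to proteins that bind integrins (Itgb1bp1, Itgb1bp2, Itgb1bp3 and Itgb3bp) and were kept apart.

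RNA of 14 samples was measured on single-colour Agilent arrays, 1 array per sample, in 4 groups. The groups were bone marrow-derived mast cells (BMMCs) labelled Pla2g3 knockout after coculture (3 arrays), Pla2g3 wild-type cells after coculture (4 arrays), BMMCs labelled knockout without coculture (4 arrays) and wild-type BMMCs without coculture (3 arrays). All carried the strain label C57BL/6.129Sv-N3. All were grown from bone marrow with interleukin-3 for 4 to 6 weeks, at which point, per the labels, over 97% of cells were positive for Kit and for the alpha chain of the high-affinity IgE receptor. Cocultured cells then spent 96 h on a layer of Swiss 3T3 cells, a mouse fibroblast line, with 100 ng/ml stem cell factor, were released with trypsin, replated, and taken as the cells that did not adhere. Their purity is labelled as over 99%. Pla2g3 encodes a secreted phospholipase A2 of group III, and the design asks how its loss bears on the maturation of mast cells by fibroblasts. No label states that the arrays of a group stand for different mice or cultures, so a p-value here reflects only how far these particular samples scatter, which may be technical.

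Integrins are pairs of an alpha and a beta chain that tie a cell to extracellular matrix or to other cells, and switch between inactive and active shapes through adaptors such as talin and kindlin. The beta1 chain serves receptors for fibronectin and laminin, the beta2 chain the leukocyte receptors that bind ICAMs, and the beta7 chain pairs with alpha4 or alphaE. The alpha4-beta7 pair is known in mice for bringing mast cell progenitors to the intestine. Cadherins join cells of the same kind in a calcium-dependent way and act through catenins. In tissues, mast cells meet fibroblasts, epithelium and nerves.

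Several facts of the whole series touch every value below. Between 17690 and 23022 probes per array (43.0% to 55.9%) were well above background, fewest on BMMC array 3 and cocultured array 1 of the labelled-KO cells. Mast cell identity genes were well above background on every array for 9 of 9 tested, and their summed level was 1274 to 2306 times the array's 75th percentile signal on labelled-KO coculture arrays, 1371 to 1790 on WT coculture arrays, 1103 to 1535 on labelled-KO BMMC arrays and 1568 to 1864 on WT BMMC arrays. The Pla2g3 probe went against the labels: it averaged -1.59 ± 0.28 in labelled-KO BMMCs and -3.80 ± 0.87 in WT BMMCs (log2 relative to the 75th percentile, SD, n = 4 and 3), and -2.34 ± 0.76 in labelled-KO cocultured cells and -3.49 ± 0.97 in WT cocultured cells (SD, n = 3 and 4). Whether this probe lies outside the deleted part of the gene is not given in the sources used here, so the term labelled-KO is kept throughout.

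Fibroblast markers were present after coculture. Of 29 tested, 18 were not well above background on any BMMC array, and 28 or 29 were well above it on the WT coculture arrays 1, 2 and 4 and on labelled-KO coculture array 3. The markers' summed level was 56.7 to 92.8 times the 75th percentile signal on labelled-KO coculture arrays, 56.7 to 481 on WT coculture arrays, 26.7 to 35.6 on labelled-KO BMMC arrays and 24 to 39.3 on WT BMMC arrays. Both cocultured arrays of the slide numbered 4 resembled the other genotype more than their own: labelled-KO coculture array 3 correlated with the WT coculture arrays at a mean r of 0.936 and with the other labelled-KO coculture arrays at 0.915, and WT coculture array 3 correlated with the labelled-KO coculture arrays at 0.954 and with the other WT coculture arrays at 0.908 (r across the genes tested, which are not independent). WT coculture array 1 of slide 2 leaned the same way by less, at 0.946 and 0.936. On the mean log2 level of the fibroblast markers, labelled-KO coculture arrays 1 to 3 stood at -2.23, -1.53 and 0.06, and WT coculture arrays 1 to 4 at 0.71, 2.42, -2.06 and 0.80. Results that rest on these arrays are given with and without the cocultured arrays of slide 4.

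Of the 53 genes, 30 were well above background on at least 3 arrays and were tested: 11 alpha chains, 8 beta chains, 4 ICAMs and 7 cadherins. The other 23 were the cadherins Cdh3, Cdh5, Cdh6, Cdh7, Cdh8, Cdh9, Cdh10, Cdh12, Cdh13, Cdh15, Cdh16, Cdh17, Cdh18, Cdh19, Cdh22 and Cdh23, the alpha chains Itga1, Itga2, Itga8, Itga10, Itga11 and Itgam, and the beta-chain relative Itgb2l. For 16 of these no probe was well above background on any array, for 6 the best probe was so on 1 array, and for Itga1 on 2 arrays. The untested set included the collagen-binding chains alpha1, alpha2, alpha10 and alpha11, the alphaM chain of the myeloid Mac-1 receptor, and VE-cadherin (Cdh5), which joins endothelial cells. A group of 14 genes was well above background on all 14 arrays: Itga2b, Itga6, Itgav, Itgb1, Itgb2, Itgb3, Itgb4, Itgb7, Itgb8, Icam1, Icam2, Icam4, Cdh2 and Cdh11.

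**Figure D1:**
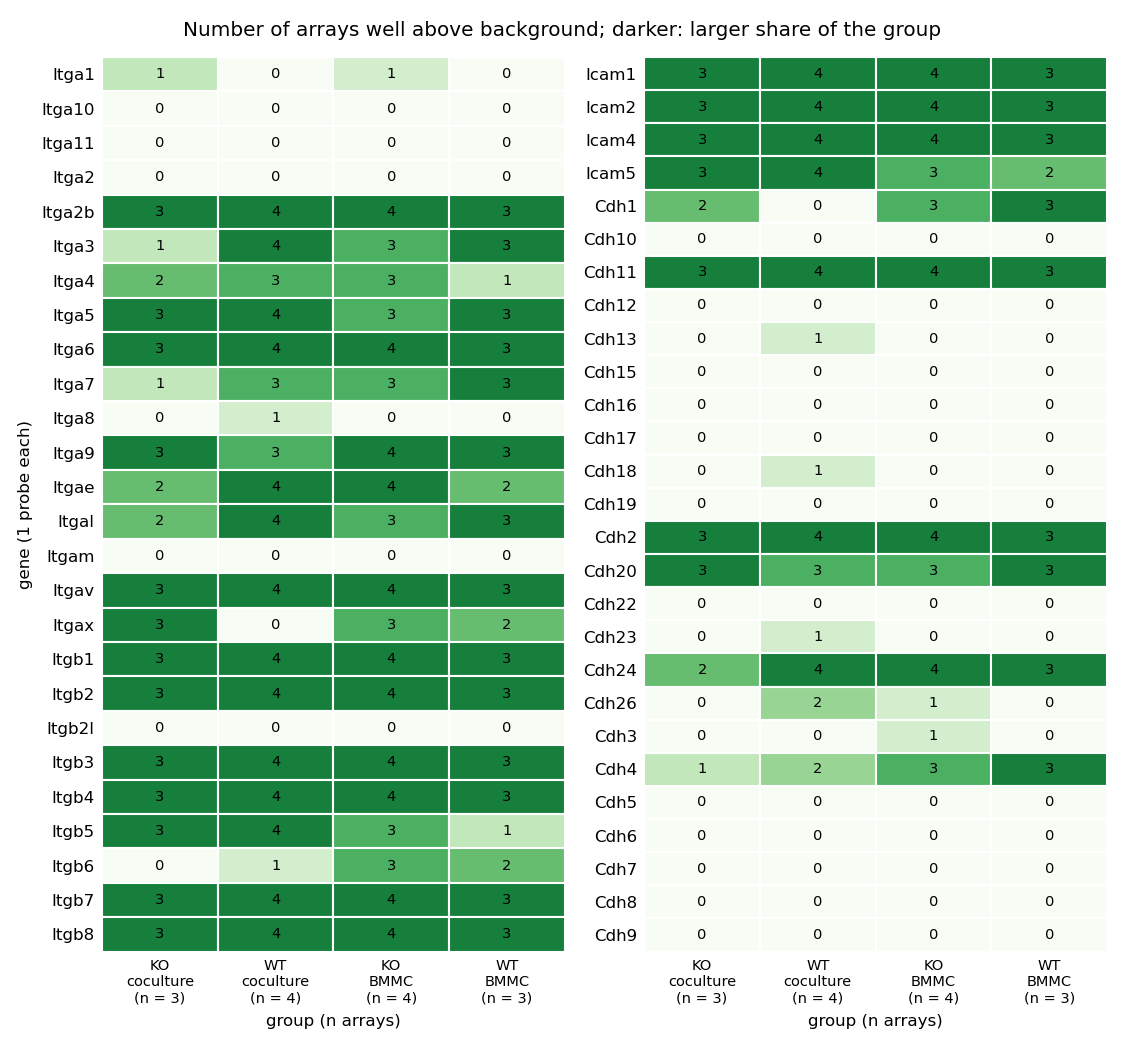
Number of arrays on which the chosen probe of each of the 53 genes was well above background, by group (columns, with the number of arrays); darker cells are a larger share of the group. Itgb5 was detected on 3 of 3 labelled-KO and 4 of 4 WT coculture arrays against 3 of 4 labelled-KO and 1 of 3 WT BMMC arrays, and Cdh1 on 2 of 3 labelled-KO and 0 of 4 WT coculture arrays against 3 of 4 and 3 of 3 BMMC arrays.

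In WT cells, 5 of the 30 tested genes (16.7%) passed an adjusted p of 0.05 after coculture, against 13.2% of all 15846 genes tested (limma, Benjamini-Hochberg adjustment over all genes, two-sided). Itga6, Itga5, Itgb5 and Itgb2 rose, where 6.13% of all genes were called higher, and Cdh2 fell, where 7.09% were called lower. In labelled-KO cells 1 gene, Itga6, passed (3.33%), against 14.4% of all genes, of which 7.64% were called higher and 6.76% lower. Coculture and BMMC arrays did not overlap for 8 of the 30 genes in labelled-KO cells (26.7%, against 28.4% of all genes) and for 10 in WT cells (33.3%, against 25.6%). The median difference over the 30 genes was 0.034 in WT cells and -0.034 in labelled-KO cells on the log2 scale, beside -0.053 and 0.057 over all genes. Averaged over both genotypes, which uses all 14 arrays, 10 genes passed (33.3%), against 28.5% of all genes: Itga6, Itga5, Itgb5, Itgb2, Itgb1 and Icam1 rose, and Itgb7, Itga2b, Itgb6 and Cdh1 fell. In bulk RNA, fewer cells of a type and less RNA per cell cannot be told apart, and part of the RNA of cocultured samples carried fibroblast markers as given above. The fibroblast layer, stem cell factor, trypsin, replating and the choice of cells that did not adhere came together in the cocultured samples. Their parts in a coculture difference cannot be told apart.

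**Figure D2:**
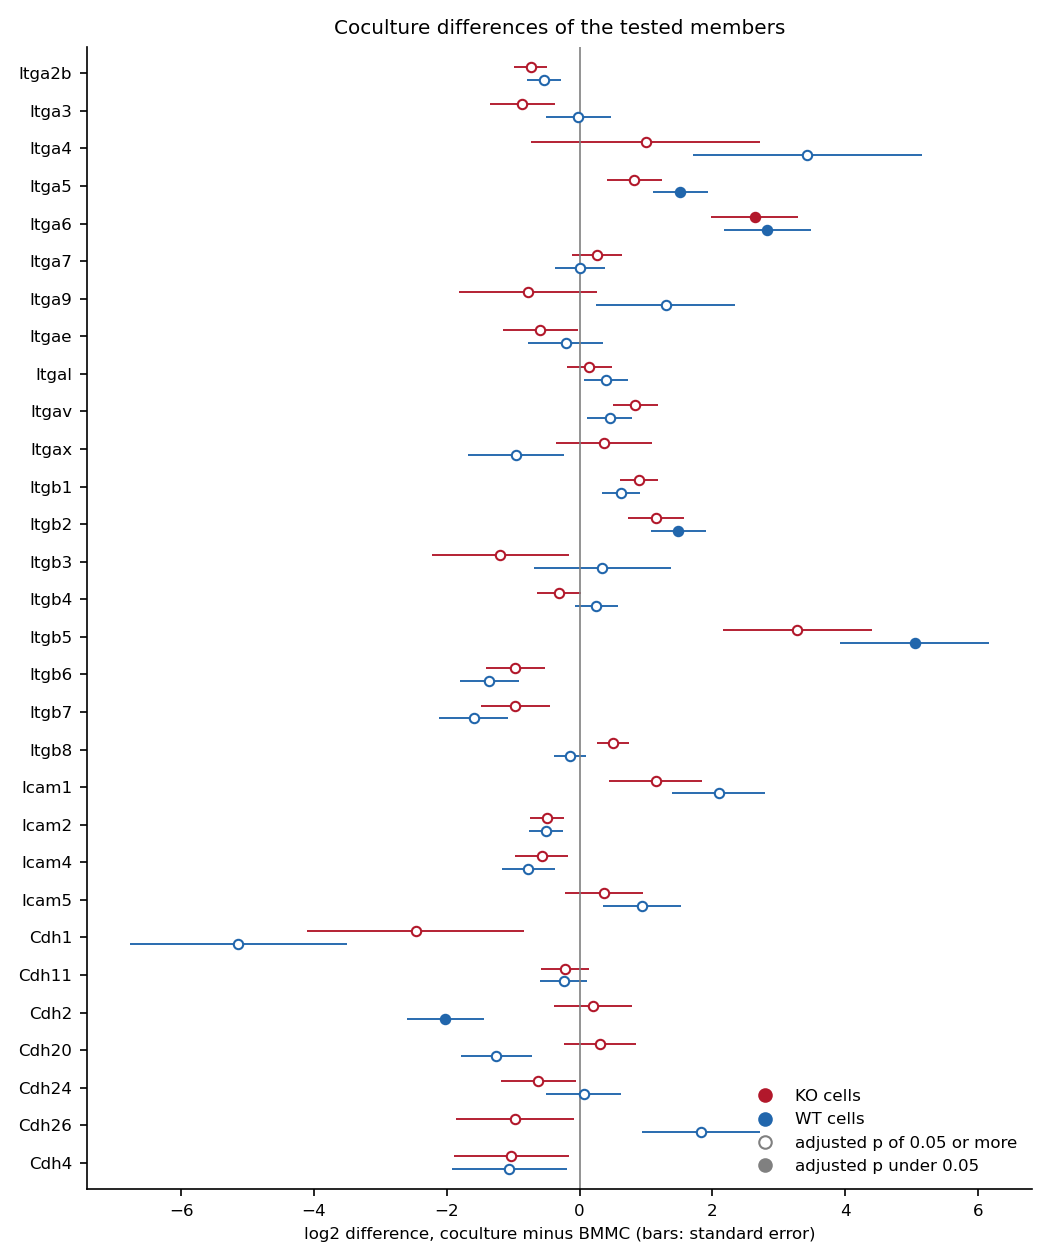
Log2 difference of coculture minus BMMC for the 30 tested genes (rows: alpha chains, beta chains, ICAMs, cadherins), in labelled-KO cells (red, upper point of each pair) and WT cells (blue), with the standard error from the fit; filled points had an adjusted p under 0.05. Itga6 is filled in both genotypes, Itga5, Itgb2, Itgb5 and Cdh2 in WT cells.

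Itga6, the alpha chain of laminin receptors, was the alpha chain with a call in each genotype. Its levels were 1.33, 0.64 and -0.37 on the labelled-KO coculture arrays, -0.52, 0.55, 2.49 and -0.32 on the WT coculture arrays, -2.72, -1.73, -1.54 and -2.43 on the labelled-KO BMMC arrays, and -2.91, -1.73 and -2.19 on the WT BMMC arrays (log2 relative to the array's 75th percentile, as for all levels below). Every cocultured array lay above every BMMC array, and WT coculture array 3 was the highest. On that array 19 of 29 fibroblast markers were well above background, against 4 to 8 on BMMC arrays. Whether fibroblast RNA had a part in the rise of Itga6 was not tested. The difference was 2.64 in labelled-KO cells (SE 0.65, adjusted p = 0.019, limma) and 2.83 in WT cells (SE 0.65, adjusted p = 0.0126, limma). Within slides it was 4.05, 2.37 and 2.06 in labelled-KO cells on slides 1, 2 and 4, and 1.21 and 2.31 in WT cells on slides 2 and 3. The call in labelled-KO cells was lost without labelled-KO BMMC array 1 (2.43), coculture array 1 (2.24) or coculture array 2 (2.58), and that in WT cells without WT BMMC array 1 (2.51), each with an adjusted p of 0.054 to 0.09 (limma). With the slide as a block the WT difference was 2.72 (adjusted p = 0.054, limma). With normexp background correction it was 1.30 in labelled-KO cells and 1.49 in WT cells, where neither call held (adjusted p = 0.0858 and 0.0506, limma), and 1.39 averaged over genotypes (adjusted p = 0.00402, limma). A separate probe of Itga6 rose as well, by 3.17 in labelled-KO cells and 3.86 in WT cells (adjusted p = 0.0238 and 0.00857 over all probes, limma), and WT cells were at least 7.75-fold higher after coculture on it, since no WT BMMC array was well above background there. Both probes lie on chromosome 2, plus strand (mm9): A_51_P262401 at chr2:71695973-71696032 and A_52_P81270 at chr2:71694194-71694253. Their first 30 of 60 bases are printed to show that the rise was read at separate sites of the gene.
Itga6 A_51_P262401: tctggagtatcttggagcctagcacactgg
Itga6 A_52_P81270: gacacccagtatggacctacagtttcaact

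Itga5, which with the beta1 chain forms the main fibronectin receptor, rose in WT cells. It stood at -1.52, -1.98 and -1.47 on the labelled-KO coculture arrays, -1.82, -0.11, -1.01 and -0.20 on the WT coculture arrays, -2.32, -2.70, -3.10 and -1.80 on the labelled-KO BMMC arrays, and -1.96, -2.54 and -2.42 on the WT BMMC arrays. WT arrays did not overlap between coculture and BMMC, whereas the labelled-KO groups overlapped at 1 BMMC array. The difference was 0.83 in labelled-KO cells (SE 0.42, adjusted p = 0.207) and 1.52 in WT cells (SE 0.42, adjusted p = 0.0297), both by limma. The WT call was lost on leaving out WT BMMC array 1 (1.69), 2 (1.40) or 3 (1.46) or WT coculture array 2 (1.29) or 4 (1.33), with adjusted p of 0.0531 to 0.111 (limma). Averaged over genotypes the difference was 1.17 (SE 0.29, adjusted p = 0.00951, limma). With normexp background correction neither call held, at 0.54 in WT cells (adjusted p = 0.285, limma) and 0.54 averaged (adjusted p = 0.0539, limma).

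Itga2b, the alphaIIb chain of the platelet fibrinogen receptor, was well above background on every array. Its levels were 3.96, 3.23 and 3.85 on the labelled-KO coculture arrays, 3.73, 3.77, 3.95 and 4.06 on the WT coculture arrays, 4.05, 4.62, 4.28 and 4.71 on the labelled-KO BMMC arrays, and 4.58, 4.14 and 4.51 on the WT BMMC arrays. Neither genotype's groups overlapped, although the gap was small. The gene fell by 0.64 averaged over genotypes (SE 0.18, adjusted p = 0.017, limma). The difference was -0.74 in labelled-KO cells (adjusted p = 0.0678) and -0.53 in WT cells (adjusted p = 0.197), which did not pass on their own. With normexp the averaged call was lost (-0.72, adjusted p = 0.0557, limma). Among 6 tested megakaryocyte and platelet markers, Gp1ba fell by 1.30 in labelled-KO cells (adjusted p = 0.0128, limma), the other 5 did not pass there and none of the 6 passed in WT cells, and the list's summed level was 11.6 to 18.0 on labelled-KO coculture arrays, 11.3 to 29.6 on WT coculture arrays, 31.4 to 38.8 on labelled-KO BMMC arrays and 33.8 to 39.2 on WT BMMC arrays. The sum was carried by Gp1ba, which averaged 3.64 ± 0.26 in labelled-KO and 4.12 ± 0.59 in WT cocultured cells, against 4.94 ± 0.19 in labelled-KO and 5.06 ± 0.12 in WT BMMCs (SD, n = 3, 4, 4 and 3). The median difference over the 6 markers was -0.315 in labelled-KO cells and 0.005 in WT cells. The part of such cells in the change of Itga2b was not tested.

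Itgav, the alphav chain of vitronectin receptors, stood at 0.87, 0.74 and 0.07 on the labelled-KO coculture arrays, -0.40, 0.30, 1.25 and 0.15 on the WT coculture arrays, -0.44, -0.33, -0.12 and -0.24 on the labelled-KO BMMC arrays, and -0.33, -0.14 and 0.08 on the WT BMMC arrays. The labelled-KO groups did not overlap, and the WT groups did. The difference was 0.84 in labelled-KO cells (SE 0.34, adjusted p = 0.118, limma) and 0.45 in WT cells (SE 0.34, adjusted p = 0.447, limma). Itgav had 6 probes, of which 3 were kept, and the 2 dimmer kept probes differed from each other. A_51_P498205 stood at -3.42 on each of the 3 labelled-KO coculture arrays (2 of them well above background), at -3.16, -3.41, -2.77 and -4.58 on the WT coculture arrays (3 of them well above background), and between -6.31 and -4.86 on the 7 BMMC arrays, none of them well above background. That Itgav probe was at least 1.49-fold higher after coculture in labelled-KO cells and at least 1.43-fold higher in WT cells, with p adjusted over all probes of 0.0115 and 0.00809 (limma). The Itgav probe A_52_P86872 stood at -5.42, -5.22 and -3.33 on the labelled-KO coculture arrays, -3.31, -3.41, -5.23 and -3.48 on the WT coculture arrays, -3.35, -3.89, -4.02 and -3.88 on the labelled-KO BMMC arrays, and -3.32, -4.30 and -4.15 on the WT BMMC arrays. Its 3 lowest arrays were all cocultured ones. The difference was -0.87 in labelled-KO cells and 0.07 in WT cells (adjusted p = 0.312 and 0.961 over all probes, limma), so of the 3 kept probes of the gene 1 passed.

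Other alpha chains were dim and spread widely. Itga4, the alpha4 chain that binds VCAM-1, stood at -4.55, -3.55 and 1.96 on the labelled-KO coculture arrays and at 1.57, 0.36, -4.36 and 2.09 on the WT coculture arrays, against -2.80, -1.37, -4.08 and -3.94 on the labelled-KO BMMC arrays and -5.57, -1.18 and -3.78 on the WT BMMC arrays. The 4 high arrays were WT coculture arrays 1, 2 and 4 and labelled-KO coculture array 3, the 4 with the highest mean of fibroblast markers. Itga4 was well above background on 2 of 3 labelled-KO and 3 of 4 WT coculture arrays. Before coculture it was so on 3 of 4 labelled-KO and 1 of 3 WT BMMC arrays. The difference was 1.0 in labelled-KO cells (SE 1.72, adjusted p = 0.755, limma) and 3.43 in WT cells (SE 1.72, adjusted p = 0.229, limma). Itga9, which binds tenascin and VCAM-1, had levels of -3.34, -1.56 and -1.82 on the labelled-KO coculture arrays and 1.29, 0.17, -4.14 and 0.17 on the WT coculture arrays, against -0.61, -0.74, -2.52 and -1.98 on the labelled-KO BMMC arrays and -2.42, -0.84 and -2.50 on the WT BMMC arrays. WT coculture array 3 was the lowest and the other 3 WT coculture arrays were the highest of all 14. Its differences were -0.78 in labelled-KO cells (adjusted p = 0.676, limma) and 1.29 in WT cells (adjusted p = 0.49, limma). A dimmer Itga9 probe, A_51_P382970, rose by 3.25 in WT cells (adjusted p = 0.0321 over all probes, limma) and differed by -0.73 in labelled-KO cells.

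That Itga9 probe stood at -3.47, -2.56 and -3.43 on the labelled-KO coculture arrays and -1.30, -1.35, -3.55 and -0.29 on the WT coculture arrays, against -1.42, -1.29, -4.84 and -2.17 on the labelled-KO BMMC arrays and -4.46, -3.93 and -6.23 on the WT BMMC arrays. Itgal, the alphaL chain of the leukocyte receptor LFA-1, differed by 0.15 in labelled-KO cells and 0.39 in WT cells on the chosen probe (adjusted p = 0.819 and 0.515, limma). On its other probe, A_52_P424970, Itgal rose by 1.70 in WT cells (adjusted p = 0.013 over all probes, limma). In labelled-KO cells Itgal differed by 1.23 on that probe. Its levels there were -2.95, -2.91 and -2.06 on the labelled-KO coculture arrays and -2.29, -2.39, -3.09 and -2.14 on the WT coculture arrays, against -4.33, -3.60, -3.51 and -4.06 on the labelled-KO BMMC arrays and -4.68, -3.27 and -4.59 on the WT BMMC arrays. All cocultured arrays lay above all BMMC arrays on that probe. Itga3 and Itga7, laminin-binding chains, Itgae, which binds E-cadherin, and Itgax, the alphaX chain of dendritic cells and macrophages, did not pass in any comparison. Their coculture differences were -0.86, 0.27, -0.59 and 0.37 in labelled-KO cells, in that order of genes. In WT cells those of Itga3, Itga7 and Itgae were -0.02, 0.01 and -0.21. For Itgax the WT coculture mean was at least 1.24-fold lower, with 0 of 4 coculture and 2 of 3 BMMC arrays well above background. The WT groups of Itgax overlapped (adjusted p = 0.454, limma).

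**Figure D3:**
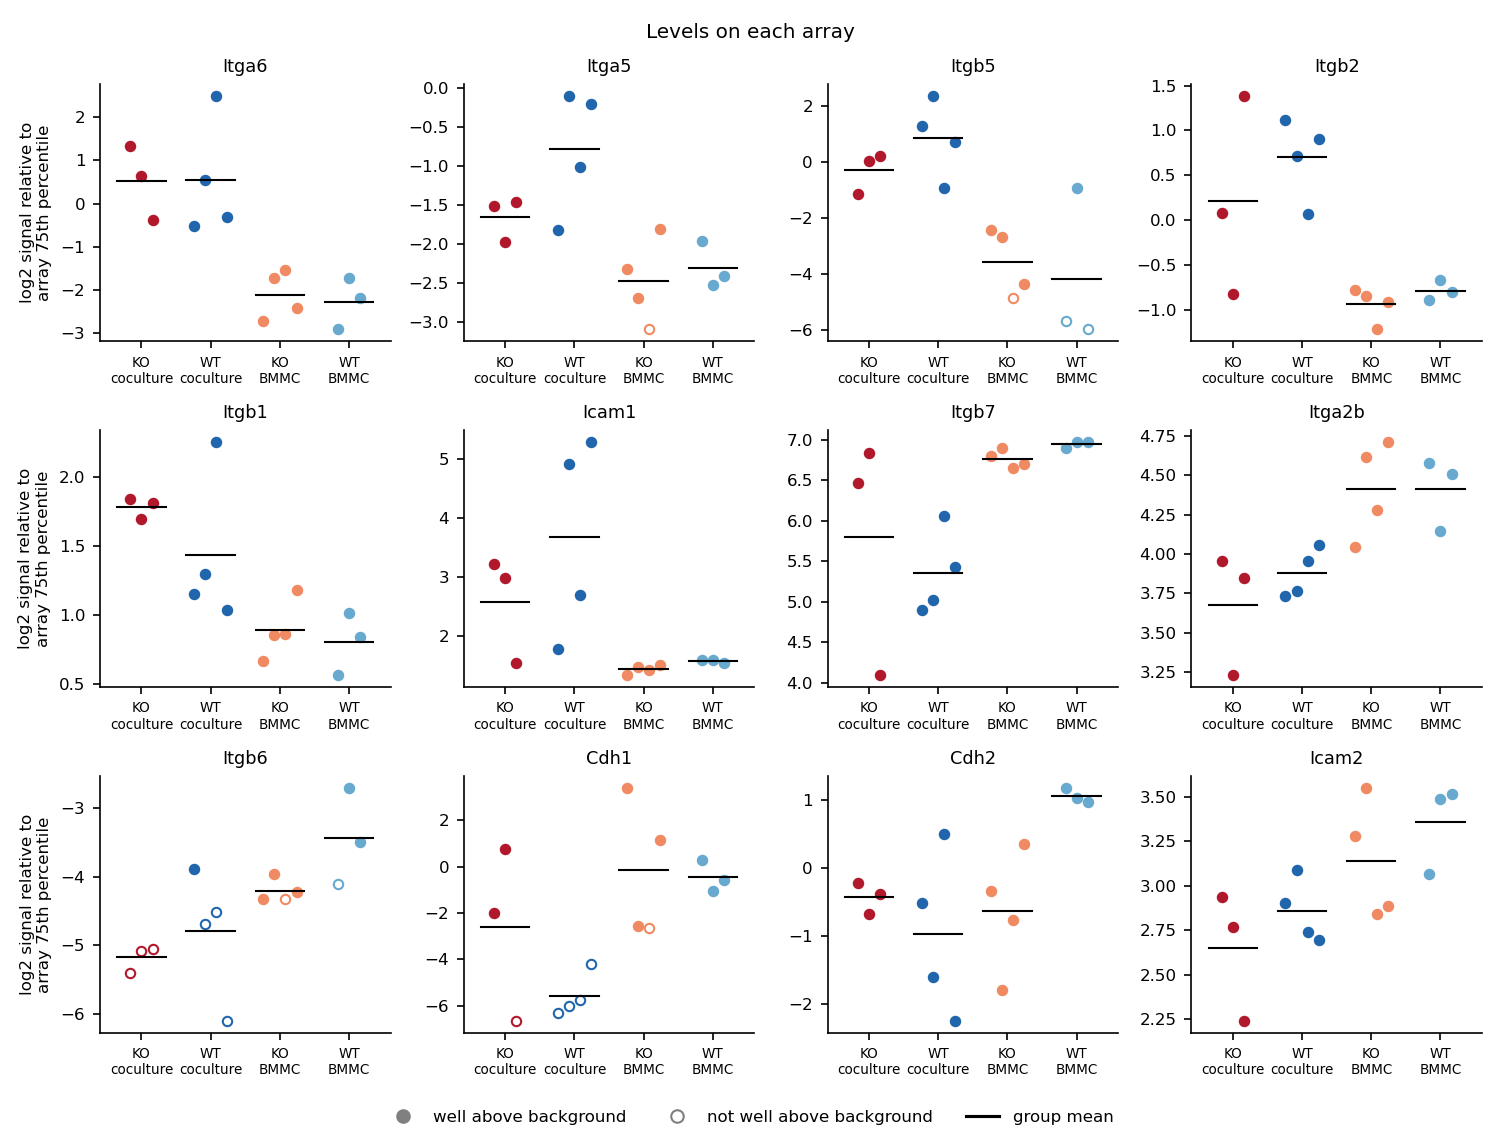
Level on each array of the 11 genes that passed in at least 1 coculture comparison and of Icam2, as log2 signal relative to the array's 75th percentile, by group; open circles were not well above background and lines are group means. Itga6 lies higher on all 7 cocultured arrays, Itgb7 is between 4.09 and 6.83 on cocultured arrays against 6.65 to 6.97 on BMMC arrays, and Cdh1 is open on 4 of 4 WT coculture arrays.

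Among the beta chains, Itgb5, which pairs with alphav, had the widest difference. It stood at -1.14, 0.02 and 0.22 on the labelled-KO coculture arrays, 1.30, 2.35, -0.94 and 0.70 on the WT coculture arrays, -2.42, -2.69, -4.85 and -4.37 on the labelled-KO BMMC arrays, and -5.67, -0.94 and -5.98 on the WT BMMC arrays. It was well above background on 1 of 3 WT BMMC arrays, array 2, whose level equalled that of WT coculture array 3 to 2 decimals. The difference was 3.28 in labelled-KO cells (SE 1.12, adjusted p = 0.0687, limma) and 5.05 in WT cells (SE 1.12, adjusted p = 0.0104, limma). Without WT BMMC array 1 it was 4.31 and without WT BMMC array 3 it was 4.15 in WT cells, with adjusted p of 0.0551 and 0.0588 (limma). Averaged over genotypes it was 4.16 (SE 0.79, adjusted p = 0.00184, limma). With normexp the size was far smaller, 1.79 in WT cells (adjusted p = 0.0194, limma) and 1.54 averaged (adjusted p = 0.00214, limma), and both calls held. Ordered by Itgb5, the cocultured arrays ran labelled-KO 1, WT 3, labelled-KO 2, labelled-KO 3, WT 4, WT 1 and WT 2, and ordered by the mean of the fibroblast markers they ran the same except that WT 1 and WT 4 changed places. The part of fibroblast RNA in this rise was not tested.

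Itgb2, the common chain of the leukocyte receptors for ICAMs, stood at 0.08, -0.82 and 1.38 on the labelled-KO coculture arrays, 1.11, 0.71, 0.07 and 0.91 on the WT coculture arrays, -0.77, -0.85, -1.22 and -0.92 on the labelled-KO BMMC arrays, and -0.89, -0.67 and -0.80 on the WT BMMC arrays. The BMMC arrays lay close together, and of the cocultured arrays 1, labelled-KO array 2, lay among them. The difference was 1.15 in labelled-KO cells (SE 0.42, adjusted p = 0.0828, limma) and 1.49 in WT cells (SE 0.42, adjusted p = 0.0327, limma). The WT call was lost without WT BMMC array 1 (1.44), 2 (1.54) or 3 (1.48) or WT coculture array 1 (1.35), 2 (1.48) or 4 (1.42), with adjusted p of 0.0651 to 0.101, and with the slide as a block (1.42, adjusted p = 0.0925, limma). Averaged over genotypes the gene rose by 1.32 (SE 0.29, adjusted p = 0.00495, limma), and this call was kept without each of the 14 arrays. With normexp the WT difference was 0.99 (adjusted p = 0.0453, limma). Macrophages express this chain too. Of 11 tested macrophage markers, Cd14 and Cd68 rose in both genotypes, by 2.49 and 2.94 in labelled-KO cells and by 4.04 and 2.69 in WT cells, and Fcgr1 fell by 3.97 in WT cells. The macrophage markers' summed level was 4.09 to 8.94 on labelled-KO coculture arrays, 5.24 to 11.2 on WT coculture arrays, 3.64 to 5.21 on labelled-KO BMMC arrays and 2.42 to 10.04 on WT BMMC arrays, and for Itgam, the chain that marks myeloid cells, 1 of 2 probes was well above background on 1 array and the other on none. The part of such cells in the rise of Itgb2 was not tested.

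Itgb1, the common chain of matrix receptors, had levels of 1.84, 1.70 and 1.81 on the labelled-KO coculture arrays, 1.16, 1.30, 2.25 and 1.04 on the WT coculture arrays, 0.67, 0.86, 0.86 and 1.19 on the labelled-KO BMMC arrays, and 0.57, 1.02 and 0.84 on the WT BMMC arrays. Neither genotype's groups overlapped. The difference was 0.89 in labelled-KO cells (SE 0.29, adjusted p = 0.0542, limma) and 0.63 in WT cells (SE 0.29, adjusted p = 0.181, limma), and 0.76 averaged over genotypes (SE 0.20, adjusted p = 0.0132, limma). The averaged call was lost with median scaling (0.68, adjusted p = 0.105), with normexp (0.50, adjusted p = 0.129) and without labelled-KO BMMC array 3 and coculture array 1 (0.74, adjusted p = 0.0519), all by limma. The array also held a probe for the beta1D splice form, named so in the files, whose 60 bases join 2 stretches of the genome at chr8:131250931-131255949 on the plus strand (mm9). It is printed whole because of that name. Whether it reads this form apart from the common one was not tested.
Itgb1 A_52_P69236: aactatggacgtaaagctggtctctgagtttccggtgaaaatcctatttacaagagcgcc
This beta1D probe of Itgb1 was dim: it stood at -4.51, -4.19 and -3.62 on the labelled-KO coculture arrays, -4.49, -2.45, -3.82 and -2.07 on the WT coculture arrays, -4.61, -5.99, -4.21 and -4.98 on the labelled-KO BMMC arrays, and -4.84, -4.36 and -2.83 on the WT BMMC arrays. It was well above background on 1 labelled-KO coculture array, 3 WT coculture arrays, no labelled-KO BMMC array and 1 WT BMMC array.

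Itgb7, which pairs with alpha4 and alphaE, was well above background throughout. Its levels were 6.47, 6.83 and 4.09 on the labelled-KO coculture arrays, 4.90, 5.02, 6.06 and 5.43 on the WT coculture arrays, 6.80, 6.91, 6.65 and 6.70 on the labelled-KO BMMC arrays, and 6.90, 6.97 and 6.97 on the WT BMMC arrays. The BMMC arrays spanned a narrow range. The lowest cocultured array was labelled-KO array 3, and the 3 cocultured arrays nearest to the BMMC level, labelled-KO 1 and 2 and WT 3, were the 3 with the lowest mean of fibroblast markers. Averaged over genotypes the gene fell by 1.28 (SE 0.37, adjusted p = 0.019, limma). The difference was -0.97 in labelled-KO cells (SE 0.52, adjusted p = 0.236, limma) and -1.59 in WT cells (SE 0.52, adjusted p = 0.0604, limma). Without the cocultured arrays of slide 4 it was -0.11 in labelled-KO cells (adjusted p = 0.717, limma) and -1.83 in WT cells (adjusted p = 0.000104, limma).

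Itgb6, the beta chain of an epithelial alphav receptor, was dim. It stood at -5.40, -5.07 and -5.05 on the labelled-KO coculture arrays, -3.88, -4.68, -4.51 and -6.10 on the WT coculture arrays, -4.33, -3.96, -4.33 and -4.22 on the labelled-KO BMMC arrays, and -4.10, -2.71 and -3.50 on the WT BMMC arrays. It was well above background on 6 arrays: 1 of 4 in the WT coculture group, 3 of 4 labelled-KO BMMC arrays and 2 of 3 WT BMMC arrays. None of the 3 labelled-KO coculture arrays was, so the averaged value rests in part on readings not well above background and no fold is given. Averaged over genotypes the fitted difference was -1.16 (SE 0.32, adjusted p = 0.0145, limma), but with another background correction (normexp) it was 0.0077 (adjusted p = 0.987, limma), so its direction depends on how background was treated. The call was also lost without labelled-KO BMMC array 3 and coculture array 1 (-1.12, adjusted p = 0.0536, limma).

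Itgb3, the beta chain of platelet and vitronectin receptors, did not pass, yet it varied among BMMC arrays. It stood at -0.57, -1.19 and -0.73 on the labelled-KO coculture arrays, -0.53, 1.62, 0.74 and 0.77 on the WT coculture arrays, -0.36, 2.26, 1.62 and -2.06 on the labelled-KO BMMC arrays, and -2.11, 1.46 and 1.56 on the WT BMMC arrays. BMMC arrays 2 and 3 of both genotypes were high and BMMC arrays 1 and 4 low. Among BMMC arrays the array number was also the slide number. A second Itgb3 probe showed the same split of BMMC arrays with a smaller spread: it stood at -0.33, 0.10 and -0.81 on the labelled-KO coculture arrays, 0.34, -0.12, -1.06 and -0.01 on the WT coculture arrays, -0.45, 0.39, 0.44 and -1.63 on the labelled-KO BMMC arrays, and -0.71, 0.55 and 0.19 on the WT BMMC arrays.
Both probes are on chromosome 11, plus strand (mm9), at chr11:104531672-104531731 and chr11:104528490-104528560, and their first 30 bases are shown because the split was read at both.
Itgb3 A_52_P553890: ccacagcaacatcagagtctttgtccattt
Itgb3 A_51_P237893: tgggactctctgccattatgtttacagagg

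The remaining beta chains were well above background on all arrays without passing. Itgb4, the beta chain of the laminin receptor of epithelial cells, stood at -2.50, -2.66 and -3.08 on the labelled-KO coculture arrays, -1.74, -1.50, -2.60 and -1.48 on the WT coculture arrays, -2.95, -2.08, -2.14 and -2.58 on the labelled-KO BMMC arrays, and -2.48, -1.95 and -1.81 on the WT BMMC arrays. Itgb8, which pairs with alphav to activate TGF-beta, stood at -1.49, -1.91 and -2.02 on the labelled-KO coculture arrays, -2.0, -2.13, -2.16 and -2.13 on the WT coculture arrays, -2.16, -2.38, -2.54 and -2.14 on the labelled-KO BMMC arrays, and -1.47, -2.09 and -2.32 on the WT BMMC arrays. The coculture and BMMC arrays overlapped in both genotypes for Itgb4 and in WT cells for Itgb8, and the labelled-KO groups of Itgb8 did not overlap. The coculture difference was -0.31 in labelled-KO cells and 0.25 in WT cells for Itgb4 (adjusted p = 0.578 and 0.697, limma), and 0.50 and -0.15 for Itgb8 (adjusted p = 0.19 and 0.771, limma).

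Of the 4 ICAMs, Icam1, the inducible ligand of the beta2 integrins, rose with coculture when both genotypes were averaged, and the other 3 did not pass. Icam1 stood at 3.21, 2.98 and 1.53 on the labelled-KO coculture arrays, 1.78, 4.90, 2.70 and 5.28 on the WT coculture arrays, 1.33, 1.47, 1.42 and 1.5 on the labelled-KO BMMC arrays, and 1.59, 1.59 and 1.54 on the WT BMMC arrays. The BMMC arrays were almost level, and the cocultured arrays spread widely, with WT arrays 2 and 4, both of slide 3, at the top. The difference was 1.14 in labelled-KO cells (SE 0.70, adjusted p = 0.303, limma), 2.09 in WT cells (SE 0.70, adjusted p = 0.0688, limma) and 1.62 averaged over genotypes (SE 0.50, adjusted p = 0.0271, limma). The averaged call was lost without WT BMMC array 1 (1.62), 2 (1.62) or 3 (1.61) or labelled-KO coculture array 1 (1.46) or 2 (1.52), with adjusted p of 0.0514 to 0.0683 (limma). Within slides the difference was 1.88, 1.51 and 0.03 in labelled-KO cells on slides 1, 2 and 4, and 0.20 and 3.55 in WT cells on slides 2 and 3. A dimmer Icam1 probe, A_52_P613241, rose by 2.28 in WT cells (adjusted p = 0.0492 over all probes, limma). In labelled-KO cells this probe differed by 1.24. It stood at -0.53, -0.60 and -1.55 on the labelled-KO coculture arrays and -1.89, 1.38, -0.65 and 1.62 on the WT coculture arrays, against -2.61, -1.91, -2.62 and -1.40 on the labelled-KO BMMC arrays and -2.08, -2.27 and -2.15 on the WT BMMC arrays.

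Icam2, a ligand of LFA-1 that is present without induction, stood at 2.94, 2.77 and 2.24 on the labelled-KO coculture arrays, 2.90, 3.09, 2.74 and 2.70 on the WT coculture arrays, 3.28, 3.55, 2.84 and 2.89 on the labelled-KO BMMC arrays, and 3.07, 3.49 and 3.52 on the WT BMMC arrays. Icam4, known on red blood cells, stood at 0.04, 0.07 and -1.79 on the labelled-KO coculture arrays, -0.49, -0.94, -0.31 and -0.45 on the WT coculture arrays, 0.22, 0.48, -0.28 and -0.36 on the labelled-KO BMMC arrays, and 0.10, 0.29 and 0.27 on the WT BMMC arrays. The WT groups of Icam4 did not overlap, and labelled-KO coculture array 3 was its lowest. The difference was -0.49 in labelled-KO cells and -0.50 in WT cells for Icam2 (adjusted p = 0.223 and 0.239, limma), and -0.57 and -0.77 for Icam4 (adjusted p = 0.379 and 0.251, limma). Icam5, a neuronal member, was dim, at -3.34 to -2.47 on labelled-KO coculture arrays, -3.38 to -0.83 on WT coculture arrays, -3.82 to -2.76 on labelled-KO BMMC arrays and -3.74 to -2.11 on WT BMMC arrays.

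The cadherins gave 1 call in WT cells and 1 with the genotypes averaged, both lower, among 7 tested. Cdh2, N-cadherin, stood at -0.22, -0.68 and -0.39 on the labelled-KO coculture arrays, -0.51, -1.59, 0.50 and -2.25 on the WT coculture arrays, -0.34, -1.79, -0.76 and 0.35 on the labelled-KO BMMC arrays, and 1.17, 1.02 and 0.97 on the WT BMMC arrays. The WT BMMC arrays lay close together above all 11 others. In WT cells Cdh2 fell by 2.02 (SE 0.58, adjusted p = 0.0377, limma), and in labelled-KO cells the difference was 0.20 (SE 0.58, adjusted p = 0.863, limma). The WT call was lost without WT BMMC array 1 (-1.96), 2 (-2.04) or 3 (-2.06), labelled-KO BMMC array 1 (-2.02), or WT coculture array 1 (-2.17), 2 (-1.81) or 4 (-1.59), with adjusted p of 0.0505 to 0.108 (limma). With normexp it was -1.28 and held (adjusted p = 0.0202, limma). The difference between those differences was 2.22 (SE 0.83), with an unadjusted p of 0.0186 and an adjusted p of 0.996 (limma).

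Cdh1, E-cadherin, which mast cells are known to carry and which binds alphaE-beta7, varied widely among labelled-KO arrays. It stood at -1.99, 0.78 and -6.67 on the labelled-KO coculture arrays, -6.33, -6.03, -5.75 and -4.19 on the WT coculture arrays, 3.41, -2.55, -2.66 and 1.16 on the labelled-KO BMMC arrays, and 0.31, -1.03 and -0.58 on the WT BMMC arrays. No WT coculture array was well above background, against 3 of 3 WT BMMC arrays, so WT cells were at least 12.4-fold lower after coculture, with an adjusted p of 0.0558 (limma), which did not pass. Averaged over genotypes Cdh1 fell by 3.80 (SE 1.16, adjusted p = 0.0258, limma), a call that was lost without WT BMMC array 1 (-3.62), without labelled-KO coculture array 3 (-2.79), without both cocultured arrays of slide 4 (-2.76), with the slide as a block (-3.42) and with normexp background correction (-1.34), with adjusted p of 0.0502 to 0.0738 (limma). The averaged value includes the WT coculture readings that were not well above background. In labelled-KO cells the 3 within-slide differences disagreed in sign, at -5.40, 3.33 and -7.83 on slides 1, 2 and 4. This probe was spotted 10 times per array.

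Cdh20, Cdh24, Cdh26 and Cdh4 were dim and did not pass. The coculture differences of Cdh20, Cdh24 and Cdh4 were 0.31, -0.62 and -1.03 in labelled-KO cells and -1.25, 0.06 and -1.06 in WT cells, in that order of genes. Cdh26 was well above background on 0 of 3 labelled-KO coculture arrays, 2 of 4 WT coculture arrays, 1 of 4 labelled-KO BMMC arrays and 0 of 3 WT BMMC arrays. No difference is given for it, since 1 group of each pair was not well above background on any array.

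Cdh11, a cadherin known from mesenchymal cells and fibroblasts, gave 2 answers depending on the probe. The probe of highest mean, A_52_P683146, stood at 1.11, 1.11 and 1.56 on the labelled-KO coculture arrays, 1.72, 0.77, 0.26 and 0.87 on the WT coculture arrays, 1.85, 1.0, 1.72 and 1.34 on the labelled-KO BMMC arrays, and 0.66, 1.07 and 1.70 on the WT BMMC arrays. It did not pass, with differences of -0.22 in labelled-KO cells and -0.24 in WT cells (adjusted p = 0.741 and 0.743, limma). The Cdh11 probe A_51_P506204 stood at -4.39, -2.90 and -1.13 on the labelled-KO coculture arrays, -0.66, 0.73, -3.34 and -1.09 on the WT coculture arrays, -6.72, -6.54, -5.01 and -6.81 on the labelled-KO BMMC arrays, and -6.04, -6.48 and -6.31 on the WT BMMC arrays. No BMMC array was well above background there, and the cocultured arrays followed the order of the fibroblast markers except that WT 1 and WT 4 changed places. After coculture it was at least 2.28-fold higher in labelled-KO cells and at least 7.51-fold higher in WT cells (p adjusted over all probes 0.021 and 0.00217, limma).

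The third Cdh11 probe, A_52_P437795, stood at -4.37, -3.10 and -1.62 on the labelled-KO coculture arrays and -0.63, 0.79, -3.76 and -1.14 on the WT coculture arrays, against -6.78, -6.51, -5.12 and -6.85 on the labelled-KO BMMC arrays and -6.12, -6.45 and -6.36 on the WT BMMC arrays. It moved with the second one, at least 1.95-fold higher in labelled-KO cells and at least 7.02-fold higher in WT cells (p adjusted over all probes 0.0276 and 0.00253, limma). On the minus strand of chromosome 8 (mm9) the steady Cdh11 probe lies at chr8:105191906-105191965, and the probes that rose at chr8:105157896-105157955 and chr8:105157473-105157532, which are 33951 and 34374 bases away. The first 30 of 60 bases of each are shown because the answer turns on which is read.
Cdh11 A_52_P683146: ctcagggacaaccaaagtgacgatcactct
Cdh11 A_51_P506204: tatttaaatgaaggagaagtccacggtgaa
Cdh11 A_52_P437795: tattttagtatacatacaaatatcagtatt
When every probe was tested on its own, members with at least 1 called probe numbered 3 in labelled-KO cells, 10 in WT cells and 14 averaged over genotypes, of 30. Of all 15846 genes, 16.5% in labelled-KO cells, 14.8% in WT cells and 32.7% averaged over genotypes had at least 1 called probe, and the mean number of kept probes was 1.57 per member and 1.47 per gene.

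**Figure D4:**
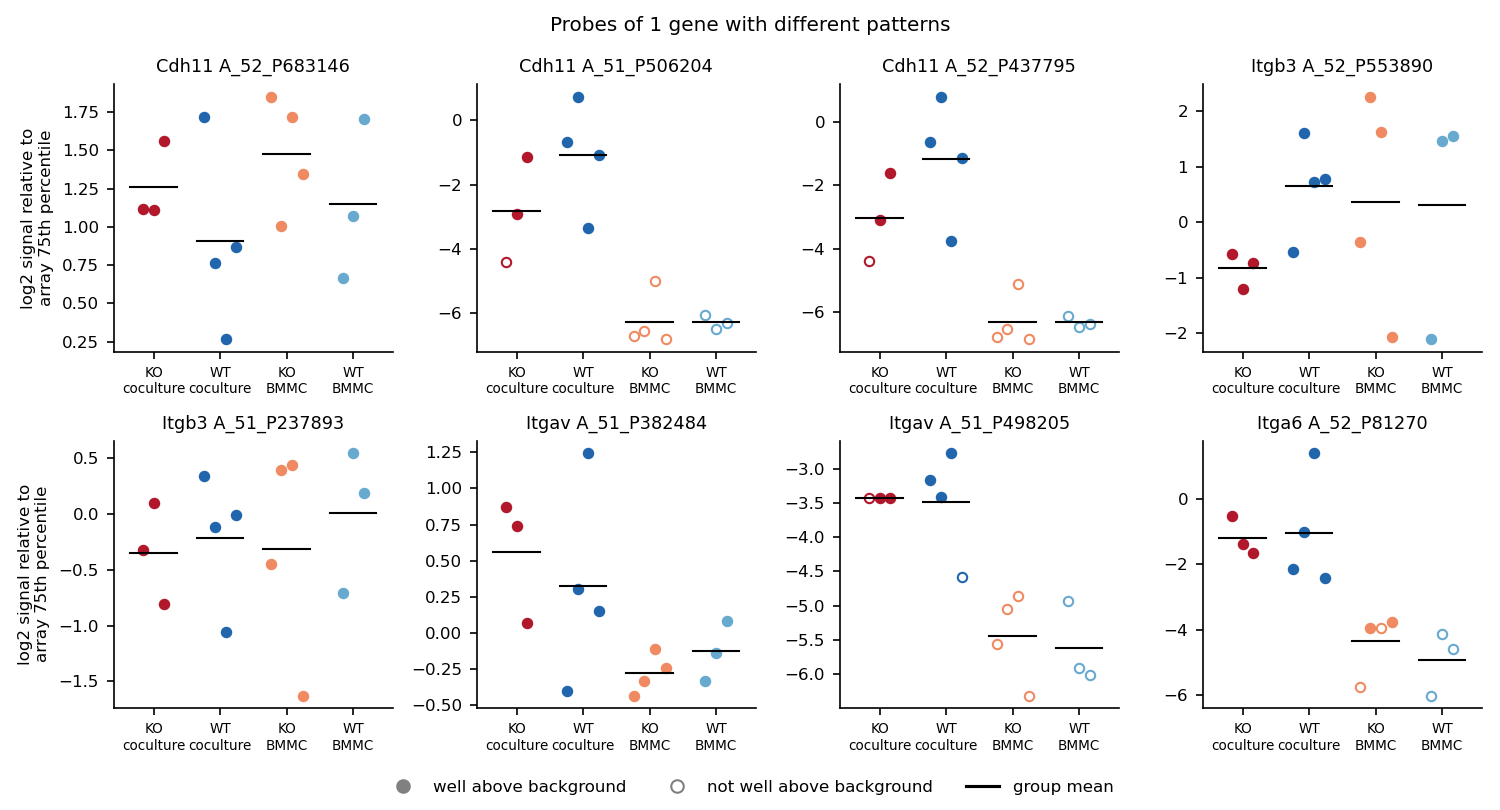
Level on each array of 8 probes of Cdh11, Itgb3, Itgav and Itga6, as log2 signal relative to the array's 75th percentile, by group and with each probe in its own panel; open circles were not well above background and lines are group means. For Cdh11 the probe A_52_P683146 is level across groups while A_51_P506204 and A_52_P437795 are open on all 7 BMMC arrays.

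Promoters are shown for 4 genes that passed a coculture comparison, with motifs of factors known in blood cells and in induced genes. They run from 250 bases before to 50 after the start (RefSeq, GRCm38.p6), and 35 of the 53 genes had one in that table. Capitals mark matches to GAGGAAG on either strand (ETS-type) and to GGNNNTTCC on either strand (NF-kB-type, where N is any base). They also mark AGATAA or TGATAA on either strand (GATA-type) and TATAAA on the gene strand (TATA box). Itgb7 lies at chr15:102231886-102232185 (minus strand), Itga2b at chr11:102469834-102470133 (minus strand), Icam1 at chr9:21015690-21015989 (plus strand) and Itgb5 at chr16:33829415-33829714 (plus strand).
Itgb7 promoter: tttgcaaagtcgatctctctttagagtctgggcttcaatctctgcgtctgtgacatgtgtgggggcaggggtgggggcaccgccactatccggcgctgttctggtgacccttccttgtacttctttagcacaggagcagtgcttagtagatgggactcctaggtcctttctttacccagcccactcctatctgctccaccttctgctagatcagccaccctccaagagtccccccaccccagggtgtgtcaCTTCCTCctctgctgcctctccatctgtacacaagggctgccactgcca
Itga2b promoter: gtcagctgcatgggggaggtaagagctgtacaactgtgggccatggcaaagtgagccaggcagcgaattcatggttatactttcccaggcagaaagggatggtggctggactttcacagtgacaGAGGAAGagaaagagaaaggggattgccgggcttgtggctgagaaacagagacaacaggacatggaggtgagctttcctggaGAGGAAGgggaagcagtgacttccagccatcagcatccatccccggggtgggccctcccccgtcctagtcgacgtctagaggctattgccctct
Icam1 promoter: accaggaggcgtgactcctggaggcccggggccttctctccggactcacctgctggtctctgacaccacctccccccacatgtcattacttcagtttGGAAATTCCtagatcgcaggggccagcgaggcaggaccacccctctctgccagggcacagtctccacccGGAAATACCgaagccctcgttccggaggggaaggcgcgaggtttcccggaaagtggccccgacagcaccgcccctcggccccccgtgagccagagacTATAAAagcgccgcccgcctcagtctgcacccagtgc
Itgb5 promoter: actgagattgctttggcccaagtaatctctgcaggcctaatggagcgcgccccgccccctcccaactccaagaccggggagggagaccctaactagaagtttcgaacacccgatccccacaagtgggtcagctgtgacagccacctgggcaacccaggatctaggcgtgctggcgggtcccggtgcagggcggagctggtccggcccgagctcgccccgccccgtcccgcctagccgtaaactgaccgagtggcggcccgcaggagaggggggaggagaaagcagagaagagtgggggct
The Itgb7 window held 1 ETS-type match and the Itga2b window 2, the Icam1 window held NF-kB-type matches and a TATA box, and the Itgb5 window held none of these letters. Of the 35 promoters, 10 held an ETS-type match, 8 an NF-kB-type match, 3 a GATA-type match and 1, that of Icam1, a TATA box. The ETS-type and NF-kB-type counts include genes too dim to be tested, such as Cdh22 and Itgb2l, so they do not describe the genes that passed. Over all 32851 promoters of the same length, the shares were 13.6%, 18.5%, 18.6% and 8.32%. These are matches of letters and say nothing of binding.

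**Figure D5:**
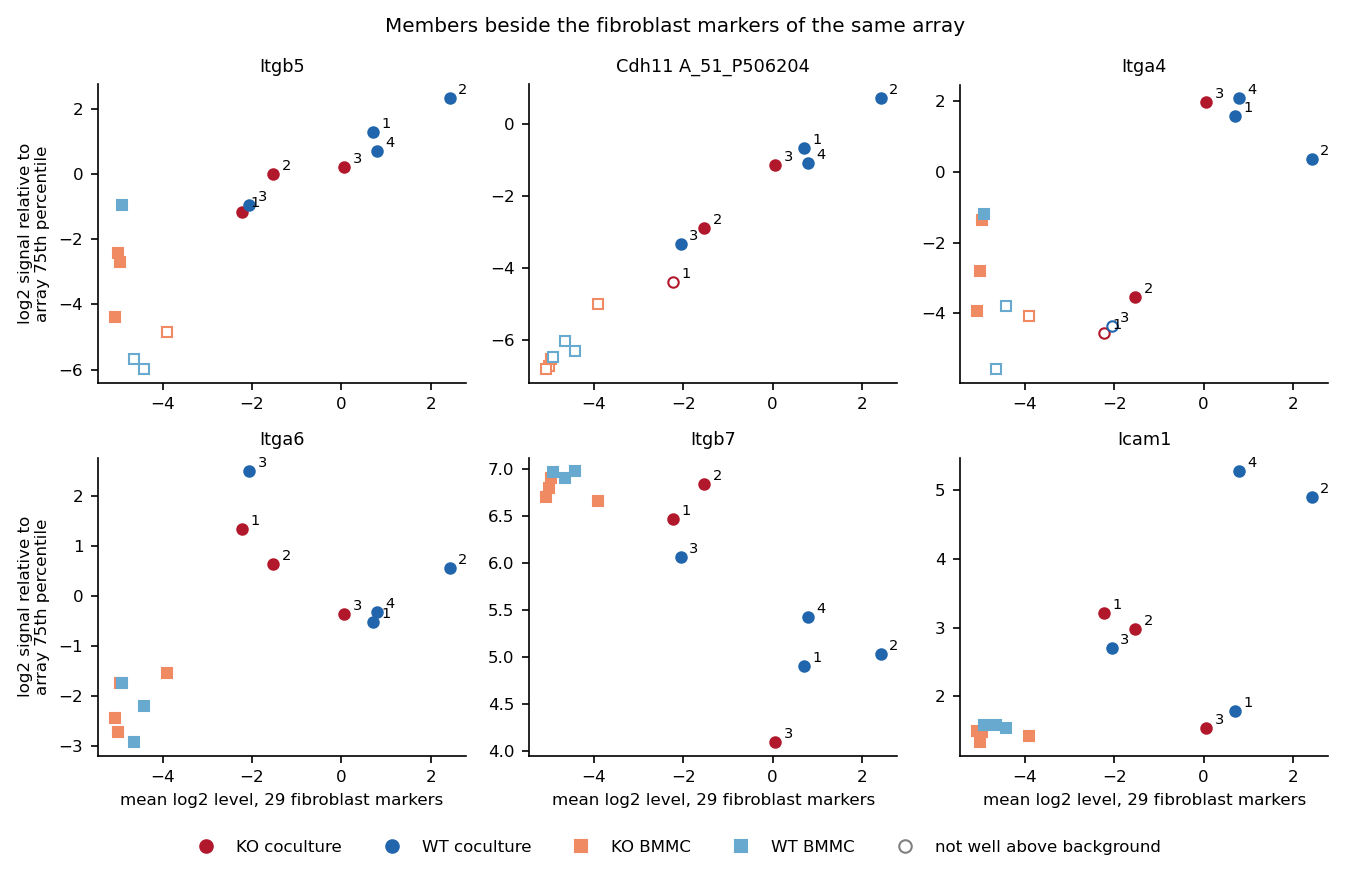
Level of 6 probes (log2 signal relative to the array's 75th percentile) against the mean log2 level of 29 fibroblast markers on the same array; circles are cocultured arrays with their replicate number, squares BMMC arrays, reds labelled-KO, blues WT, and open symbols were not well above background. Labelled-KO array 1, WT array 3 and labelled-KO array 2 have the lowest marker means of the cocultured arrays, -2.23, -2.06 and -1.53, and the highest Itgb7 levels among them.

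Without the cocultured arrays of slide 4, 5 genes passed in labelled-KO cells (16.7%, against 30.4% of all genes) and 12 in WT cells (40%, against 23.7%). In labelled-KO cells these were Itga6 (3.09), Itgav (1.09), Itgb1 (0.87), Itga2b (-0.82) and Cdh4. In WT cells Itga4 (4.85), Itga9 (2.47), Itgb7 (-1.83), Icam1 (2.42), Icam4 (-0.85), Cdh1 and Cdh20 (-1.72) joined the 5 called with all arrays, Itga6 (2.18), Itga5 (1.59), Itgb5 (5.65), Itgb2 (1.70) and Cdh2 (-2.51), all as log2 differences by limma. Cdh4 in labelled-KO cells and Cdh1 in WT cells had no cocultured array well above background among those left, so they have only bounds: at least 1.81-fold lower for Cdh4 and at least 12.5-fold lower for Cdh1. The WT value of Itga4 rests in part on BMMC readings not well above background, since 1 of 3 WT BMMC arrays was. Averaged over genotypes, 11 passed without these arrays (36.7%, against 36.2% of all genes).

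Whether labelled-KO and WT cells differ was asked before and after coculture. Before coculture none of the 30 genes passed (limma), 1 had an unadjusted p under 0.05, and 0% of all genes passed. The 1 was Cdh2, at -0.63 ± 0.90 in labelled-KO BMMCs and 1.06 ± 0.10 in WT BMMCs (SD, n = 4 and 3), a difference of -1.69 (SE 0.58, adjusted p = 1, limma). Groups of 2 genes, Cdh2 and Icam1, did not overlap (6.67%, against 4.11% of all genes).

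After coculture none of the 30 passed (limma), 3 had an unadjusted p under 0.05, and again 0% of all genes passed. Those were Itgb4, at -2.75 ± 0.30 in labelled-KO and -1.83 ± 0.53 in WT cocultured cells, Itga3, at -4.05 ± 0.67 and -2.80 ± 0.50 in the same order, and Cdh26 (SD, n = 3 and 4, adjusted p = 0.81 each, limma). On another kept probe Itga3 differed by -0.17, against -1.26 on the chosen one, and Itgb4 by -0.98, against -0.92. Groups of 3 genes did not overlap (10%, against 1.71% of all genes): Itgax, Itgb3 and Cdh26. Itgb3 differed by -1.48 on the chosen probe and by -0.13 on its other probe, where the groups overlapped. Cdh26 was well above background on 0 of 3 labelled-KO and 2 of 4 WT coculture arrays. Itgax was well above background on 3 of 3 labelled-KO and 0 of 4 WT coculture arrays, at least 1.80-fold higher in the labelled-KO cells (adjusted p = 0.81, limma). Its levels were -2.43, -3.63 and -3.46 on labelled-KO coculture arrays and -3.99, -4.79, -4.61 and -5.30 on WT coculture arrays. No gene passed in the test of whether the coculture difference itself differed between genotypes (limma, 0% of all genes), where 2 genes, Cdh2 and Cdh26, had an unadjusted p under 0.05.

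Without the cocultured arrays of slide 4, 7 of the 30 genes passed between labelled-KO and WT cocultured cells (23.3%, against 24.7% of all genes). Itgb7 (1.53) and Itgav (0.79) were higher and Itgb2 (-1.28), Itga4 (-5.39), Itga9 (-2.99), Itgb4 (-1.01) and Cdh4 lower in labelled-KO cells (log2, limma), Cdh4 by at least 2.0-fold, since neither labelled-KO array left was well above background. For the difference of differences, 4 genes passed (13.3%, against 12.2% of all genes): Itgb7 (1.72), Itga4 (-5.86), Itga9 (-3.45) and Cdh2 (2.69). Both Itga4 values rest in part on readings not well above background. These arrays were left out because they resembled the other genotype. That choice favours a difference between genotypes, so these counts cannot show one. WT coculture array 1, which leaned the same way (r of 0.946 and 0.936), was kept. Within slides, labelled-KO minus WT cocultured cells was 1.93 on slide 2 and -1.97 on slide 4 for Itgb7, -1.93 and 1.31 for Itgb2, and -5.13 and 6.33 for Itga4, opposite in sign on the 2 slides in each case.

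Adaptors that link integrins to the cytoskeleton or activate them gave 6 higher and 0 lower of 31 tested in labelled-KO cells and 5 higher and 0 lower in WT cells, with median differences of 0.445 and 0.309 (all genes 0.057 and -0.053). Of all genes 7.64% were called higher in labelled-KO cells and 6.13% in WT cells, the background for this and the following lists. Nedd9, a docking protein of focal adhesions, rose by 1.78 in labelled-KO cells and 1.71 in WT cells. Parvb, a parvin that binds the integrin-linked kinase complex, was at least 6.86-fold higher in labelled-KO cells and at least 12.1-fold higher in WT cells. Actn4, an actin crosslinker, and Ptk2b, a kinase related to focal adhesion kinase, rose by 0.75 and 1.03 in labelled-KO cells, and Actn1 rose by 1.61 in WT cells.

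Ligands of integrins and ICAMs gave 11 higher and 0 lower of 24 tested in labelled-KO cells and 17 higher and 0 lower in WT cells, with medians of 2.486 and 3.778. Nid1, a basement membrane protein, was at least 53.8-fold higher in labelled-KO cells and at least 71.2-fold higher in WT cells. The collagen chain Col3a1 was at least 62.4-fold higher in labelled-KO cells and at least 351.9-fold higher in WT cells. This list shares genes with the fibroblast markers, of which 15 of 29 rose in labelled-KO cells and 24 of 29 in WT cells, and the part of fibroblast RNA in it was not tested.

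Among 11 tested catenins and cadherin partners, Ctnna1, alpha-catenin, rose by 0.67 in labelled-KO cells, and Nectin3 and Nectin1 rose by 2.10 and 1.29 in WT cells. Among 14 other adhesion molecules, Cd44, the hyaluronan receptor, rose by 1.47 in labelled-KO cells and none passed in WT cells. The 2 tested proteins named for binding integrins, Itgb1bp1 and Itgb3bp, did not pass with all arrays. Of mast cell identity genes, Hdc, which makes histamine, rose by 3.72 in labelled-KO cells and 3.24 in WT cells, and Tpsb2, a tryptase, by 1.95 in labelled-KO cells. Of 4 dendritic cell markers H2-Ab1 fell by 1.48 in labelled-KO cells and 2.05 in WT cells. None of the 2 lymphocyte, 2 neutrophil, 1 endothelial and 2 epithelial markers tested passed in either genotype. However, the neutrophil markers' summed level was 5.24 on WT BMMC array 2, against 0.096 and 0.228 on WT BMMC arrays 1 and 3. In the other groups it was at most 0.222. That array also had the highest macrophage sum among BMMC arrays, 10.04. How far such RNA bears on the WT BMMC values was not tested.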

How the data were processed

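Each array's spots were read from the deposited scanner tables, which per the file headers came from Agilent Feature Extraction 9.5.1.1 and hold 1-colour intensity values that the software had already background-corrected. Per the labels, 450 ng of RNA was labelled with Cy3. The deposited intensity was averaged over spots of a probe after control and outlier spots were left out (74 to 326 spots per array), and log2 of it minus the array's 75th percentile is the level used. A probe was kept if 3 or more arrays had it well above background and none lacked a value (23243, with 380 left out for a missing value), and the probe of highest mean stood for each gene, giving 15846 genes. The arrays' number limits precision. Groups were compared in limma 3.58.1 (R 4.3.3) over all 14 arrays with no block, p adjusted by Benjamini-Hochberg over all genes, threshold 0.05. The fit was tested on simulated data with 200 changed genes. Those data had independent scatter and no slide effect or background limit, so they say nothing of how the calls depend on these. "At least" folds are bounds for a group with no array well above background: the brighter group's mean against the dimmer group's mean of, per array, the higher of the lowest signal well above background and the probe's own.

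Values on every array are given for genes that passed, for those well above background on all arrays, and for those whose probes disagreed by over 1 log2 unit in a called comparison, and further genes are described by range. The members, lists and rule were chosen with earlier results of these data known. Same-numbered labelled-KO and WT BMMC arrays deviated together (r = 0.197, 0.499 and 0.487). They also shared slides 1, 2 and 3, so a pairing by number and the slide cannot be told apart. Same-numbered coculture arrays did not deviate together (r = -0.434, -0.149 and -0.547), but those numbered 1 and 2 lay on different slides. Alternatives were other scalings, background corrections, filters and probe rules, the slide or the replicate number as a block, and leaving out arrays. Figures were drawn with matplotlib 3.10.9.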

Additional observations from a re-analysis of the deposited data

Results flagged for a closer look

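Among 60 groups of 4 arrays checked (each tested gene in the WT coculture and labelled-KO BMMC groups), 1 held an array far from the others: Cdh24 on labelled-KO BMMC array 3 stood at -1.82, against -3.04 for the nearest and -3.15 for the farthest of the other 3. The gap was 0.914 of the group's range, above Dixon's critical value for 4 samples. Chance flags about 1 in 20 such groups. That array also had the fewest probes well above background, 17690.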

How the results depend on the processing

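The count of genes that passed in labelled-KO cells after coculture, 1 with all arrays, was 3 with quantile normalization, 3 with the slide as a random block, 3 with a variance trend, 2 with a stricter filter, 2 with the mean over a gene's probes, 3 with every probe on its own, 5 without both cocultured arrays of slide 4 and 0 without labelled-KO BMMC array 3 and coculture array 1. In WT cells, 5 with all arrays became 2 with no filter, 8 with the mean over probes, 10 with every probe, 12 without the slide 4 arrays and 3 without the 2 labelled-KO arrays just named. The replicate block gave 0 in labelled-KO and 2 in WT cells, and the BMMC arrays fitted alone with that block gave 0 calls as before. Between genotypes after coculture, 0 became 7 and the difference of differences 4, without the slide 4 arrays, which were chosen for their likeness to the other genotype. Leaving out 1 array gave 0 to 3 in labelled-KO cells, 0 to 9 in WT cells (0 without WT BMMC array 1, 9 without WT coculture array 3), 8 to 11 averaged over genotypes, and 0 to 0 between genotypes. Itga6, Itgb2, Itgb5 and Itgb7 averaged over genotypes passed under all 27 alternatives. With normexp, Itgb6 was 0.0077 (adjusted p = 0.987, limma), and 7 calls were lost: Itga6 in labelled-KO cells (1.30), Itga6 (1.49) and Itga5 (0.54) in WT cells, and Cdh1 (-1.34), Itga2b (-0.72), Itga5 (0.54) and Itgb1 (0.50) averaged. Calls that held under it were smaller in Itgb5 (1.54 averaged, against 4.16), Itga6 (1.39, against 2.73) and Cdh2 in WT cells (-1.28, against -2.02). The WT calls of Cdh2, Itga5 and Itgb2 were also lost with no filter (adjusted p of 0.0562 to 0.063) and with the replicate block (0.0752 to 0.0955, limma), and that of Itga6 in labelled-KO cells with the block (0.0543). Median scaling moved the median of all genes to -0.235 in WT coculture and 0.298 between genotypes after coculture. The every-probe, the 2-array and the BMMC-alone alternatives were chosen after seeing the data. Where a setting changed a count, the cause was not tested. Itgb6, Cdh26 and Itgax lie near the array background, which limits their values.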
